A study of Mus musculus with 9 samples.

Results

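The genes described are 8 genes of mature B lymphocytes: Cd79a and Cd79b, the signalling chains of the B cell receptor, Ighd, the constant region of surface IgD, the surface proteins Cd22, Cr2 and Ms4a1, and the transcription factors Pax5 and Spib. They were taken by gene name from a count table of mouse adipose tissue, and all 8 were among its 3958 listed genes. RNA was sequenced from male C57BL/6J mice, a common inbred strain, at day 21. Libraries with the treatment label EA (titles APX 5, 7 and 8, here EA 5, EA 7 and EA 8) came from mice given electroacupuncture, a current passed through acupuncture needles. They were set against MPX (numbers 2, 5 and 7) and CPX (numbers 4, 6 and 8), both without a treatment label, so each of the 3 groups held 3 libraries. The study design names a normal diet, a high-fat diet and a high-fat diet with electroacupuncture, but the labels do not say which diet MPX and CPX had, so no statement about diet is made. Neither the fat depot nor the age of the mice is stated, and retinas are the tissue named in the extraction text. Whether the 3 libraries of a group come from separate mice is not stated, and p-values measure only their spread, which may be technical.

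The B cell receptor is a membrane-bound antibody held together with a pair of partner chains, encoded by Cd79a and Cd79b, which carry the signal into the cell after antigen binds. Naive mature B cells display both IgM and IgD, made from one primary transcript, and the coreceptor complex around CR2 raises the signal while CD22 dampens it. Pax5 holds cells to the B lineage. In fat, B cells lie scattered in the stroma and gather in lymphoid clusters, and lymph nodes are embedded in several mouse fat depots.

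The listed counts per library ran from 12115183 in CPX 6 to 14208853 in MPX 7, and levels are given as CPM, counts scaled to a common total of the listed counts. Adipocyte genes were abundant in every library but differed in sum: the 14 genes of an adipocyte list added up to 30233 to 43091 CPM in EA, 45250 to 52358 CPM in MPX and 6868 to 87297 CPM in CPX, where CPX 6 was the lowest of all 9 libraries and CPX 4 the highest. The table lists genes by their total over the libraries and ends at 8471 counts. In MPX and in CPX 4 and CPX 8 together the members held between 61 (Pax5) and 291 (Ighd) counts, so each row is listed only through its counts in EA and CPX 6. A B cell gene with low counts everywhere could not have entered, and a count of members that differ is therefore no support for a difference.

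The receptor chains Cd79a and Cd79b each carry 1 immunoreceptor tyrosine-based activation motif, the paired tyrosines that are phosphorylated when the receptor is engaged. Their coding stretches are shown because these motifs define the genes' role in the receptor, with the tyrosine codons in capitals (GRCm38, GENCODE M21). The Cd79a stretch spans exons 4 and 5 of 5 (chr7:24901296-24901469, plus strand) and the Cd79b stretch exons 5 and 6 of 6 (chr11:106311867-106312012, minus strand), both with the intron removed.
Cd79a: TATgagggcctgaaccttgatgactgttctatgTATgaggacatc
Cd79b: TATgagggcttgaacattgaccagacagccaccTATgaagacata
The stretches have 45 bases each and are identical at 31 of them (68.9%). Cd79a, at 7:24897381-24902197 on the plus strand in mm10, stood at 87.0, 144.0 and 231.9 CPM in EA 5, EA 7 and EA 8. It was at 1.63, 3.48 and 0.64 CPM in MPX 2, MPX 5 and MPX 7, and at 2.37, 489.0 and 4.96 CPM in CPX 4, CPX 6 and CPX 8. Every EA library lay above every MPX library, and CPX was split, with CPX 6 above all EA libraries and the other two far below them. Cd79b, at 11:106311341-106314762 on the minus strand, had 83.6, 123.9 and 230.1 CPM in the EA libraries in the same order. Its MPX values were 2.27, 3.78 and 1.34 CPM, and its CPX values 3.12, 490.5 and 5.99 CPM. The partner chains thus ranked the 9 libraries identically, from CPX 6 and EA 8 at the top to MPX 7 at the bottom. These are bulk tissue values, in which fewer B cells and less RNA per B cell cannot be told apart.

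Cd22 is a sialic acid-binding receptor whose cytoplasmic tail holds inhibitory tyrosine motifs, the counterpart of the activating motifs in Cd79a and Cd79b. The 3 stretches of its coding sequence near the end that fit the motif pattern are shown with the tyrosine codon in capitals; they lie on the minus strand in exon 12 (chr7:30867494-30867511), exon 14 (chr7:30866600-30866617) and again exon 14 (chr7:30866540-30866557).
Cd22 exon 12: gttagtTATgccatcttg
Cd22 exon 14, first: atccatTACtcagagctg
Cd22 exon 14, second: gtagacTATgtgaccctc
Cd22 (7:30865402-30880342, minus strand) was at 82.8, 116.5 and 291.8 CPM in EA 5, EA 7 and EA 8. In MPX 2, MPX 5 and MPX 7 it had 3.90, 2.47 and 1.06 CPM, and in CPX 4, CPX 6 and CPX 8 it had 1.23, 455.8 and 1.26 CPM. The lowest EA value was 21.2 times the highest MPX value, and only CPX 6 exceeded the EA libraries.

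Cr2, complement receptor 2, binds complement fragments on antigen and is also found on follicular dendritic cells, the stromal cells of B cell follicles. The gene (1:195136811-195176716, minus strand) had 75.9, 102.3 and 247.0 CPM in EA 5, EA 7 and EA 8. Its level was 0.78, 1.08 and 0.64 CPM in MPX 2, MPX 5 and MPX 7 and 0.19, 400.3 and 2.44 CPM in CPX 4, CPX 6 and CPX 8. Of the 8 genes it had the widest gap between EA and MPX, the lowest EA library being at 70.2 times the highest MPX library. Ms4a1 encodes the B cell surface antigen CD20 and lies at 19:11249675-11266241 on the minus strand. It stood at 102.2, 143.9 and 267.7 CPM in EA 5, EA 7 and EA 8, at 0.85, 3.63 and 0.071 CPM in MPX 2, MPX 5 and MPX 7, and at 1.33, 595.4 and 6.70 CPM in CPX 4, CPX 6 and CPX 8. The EA and MPX ranges did not overlap, while CPX reached both above and below EA. The MPX 7 value of Ms4a1 rests on 1 count (95% exact Poisson interval 0.0018 to 0.394 CPM) and the CPX 4 value of Cr2 on 2 counts (0.023 to 0.684 CPM), and such intervals cover counting error only.

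Pax5 (4:44524757-44710487, minus strand) was at 57.0, 107.6 and 186.7 CPM in EA 5, EA 7 and EA 8. In MPX 2, MPX 5 and MPX 7 it was at 0.57, 1.31 and 0.42 CPM, and in CPX 4, CPX 6 and CPX 8 at 1.33, 422.9 and 1.26 CPM. Every library of the low set, MPX together with CPX 4 and CPX 8, held at most 17 counts of it. Spib (7:44525993-44532071, minus strand) encodes an ETS-family factor of B cells and plasmacytoid dendritic cells. It had 62.0, 93.5 and 176.2 CPM in EA 5, EA 7 and EA 8, 0.57, 2.93 and 0.57 CPM in MPX 2, MPX 5 and MPX 7, and 1.52, 293.1 and 1.10 CPM in CPX 4, CPX 6 and CPX 8. As for Pax5, the EA libraries lay between CPX 6 and all the others.

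The sequences before the start sites of the 8 genes were searched for letters bound by factors of B cells. Both strands of the 250 bases before the RefSeq start site (GRCm38.p6) were read. RefSeq promoters were matched for 5 of the 8 genes: Cd79a, Cr2, Spib, Pax5 and Cd22. Those of the first 4 are shown up to the gene start of the count table where that lies earlier, with motif matches in capitals: Cd79a at chr7:24897247-24897380 (plus strand), Cr2 at chr1:195176720-195176969, Spib at chr7:44532072-44532321 and Pax5 at chr4:44710695-44710944 (the last 3 on the minus strand). The Cd22 window lies inside the gene as the table gives it.
Cd79a: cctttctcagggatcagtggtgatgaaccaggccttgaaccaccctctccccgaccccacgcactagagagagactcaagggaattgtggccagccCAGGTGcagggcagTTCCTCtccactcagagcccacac
Cr2: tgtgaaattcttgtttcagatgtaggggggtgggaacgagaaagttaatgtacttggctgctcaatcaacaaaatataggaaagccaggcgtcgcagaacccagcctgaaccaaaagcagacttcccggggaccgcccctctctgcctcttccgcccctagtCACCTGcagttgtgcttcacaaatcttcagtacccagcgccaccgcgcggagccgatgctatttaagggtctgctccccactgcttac
Spib: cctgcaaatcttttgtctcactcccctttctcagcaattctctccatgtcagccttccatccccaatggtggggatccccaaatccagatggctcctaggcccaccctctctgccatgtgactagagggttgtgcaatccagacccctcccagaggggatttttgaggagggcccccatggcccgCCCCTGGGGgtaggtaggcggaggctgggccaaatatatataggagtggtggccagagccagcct
Pax5: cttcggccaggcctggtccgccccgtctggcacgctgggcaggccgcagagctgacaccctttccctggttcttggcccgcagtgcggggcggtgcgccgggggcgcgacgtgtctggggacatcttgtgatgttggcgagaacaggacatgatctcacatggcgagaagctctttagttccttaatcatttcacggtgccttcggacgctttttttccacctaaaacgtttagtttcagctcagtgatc
The E-box letters CAGGTG were found in Cd79a, 154 bases before the RefSeq start, in Cr2 at 88 bases (as CACCTG) and in Cd22 at 245 bases, and they occur in 17.2% of 32851 RefSeq promoters of the same length. The letters GAGGAA, a core bound by ETS factors such as PU.1, were found in Cd79a at 140 bases (as TTCCTC, the minus strand) and occur in 23.3% of promoters. The palindrome core CCCNNGGG, bound by EBF1, was found in Cd22 at 48 bases and in Spib as a pair of overlapping matches at 65 and 64 bases, and it occurs in 11.8%. The Pax5 window held no match, and the octamer ATTTGCAT was in none of the 5 windows and occurs in 1.60% of promoters. A match of such short letters describes the sequence and is not a binding site.

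Ighd (12:113406604-113416324, minus strand) had the highest level per kb of gene length among the 8 genes in 5 libraries: EA 7, at 117.3 CPM per kb, all 3 of MPX, at 1.94 to 4.11 CPM per kb, and CPX 6, at 709.95 CPM per kb. It stood at 109.8, 222.9 and 291.5 CPM in EA 5, EA 7 and EA 8. In MPX 2, MPX 5 and MPX 7 its level was 3.69, 7.80 and 5.09 CPM, and in CPX 4, CPX 6 and CPX 8 it was 3.22, 1349 and 2.52 CPM. Its lowest EA library was 14.1 times its highest MPX library, the narrowest such gap among the 8 genes. How reads of overlapping antibody gene segments were assigned is not given in the sources used here, so Ighd counts carry that uncertainty, as do those of Ighm.

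**Figure D1:**
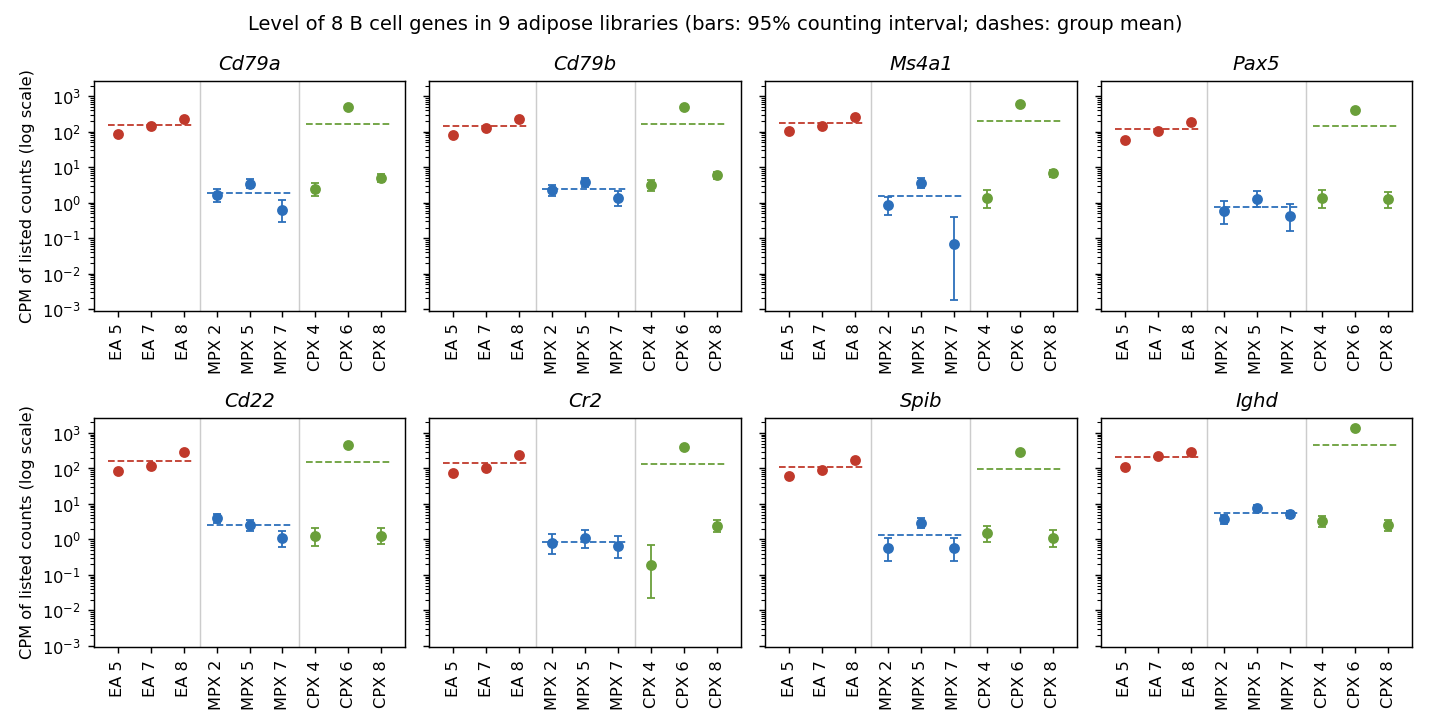
Level of each of the 8 genes in each library, as CPM of the listed counts on a log axis, with the groups EA, MPX and CPX side by side. Points are libraries, bars their 95% counting intervals and dashes the group means. EA libraries stand at 57.0 to 291.8 CPM for every gene, MPX libraries at 7.80 CPM or below, and CPX 6 stands alone at 293.1 to 1349 CPM above CPX 4 and CPX 8.

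All 8 genes ranked the top of the library order alike: CPX 6 was highest, then EA 8, EA 7 and EA 5, and the other 5 libraries followed. That order held for 8 of 8 members and for 262 of all listed genes (6.62%). Within EA, EA 8 exceeded EA 5 by 2.62 times (Ms4a1) to 3.52 times (Cd22). CPX 6 held 98.2% (Cd79b) to 99.6% (Ighd) of the summed CPM of the 3 CPX libraries, so a CPX mean describes none of them. It was at least 4-fold above the mean of CPX 4 and CPX 8 for each member, as it was for 214 listed genes (5.41%). Among the 28 pairs of members, Pearson's correlation of log2 CPM over the 9 libraries was 0.921 to 0.998, a description of libraries that fall into a high and a low cluster. Together the 8 genes took 0.0687%, 0.115% and 0.211% of the listed counts in EA 5, EA 7 and EA 8. Their share was 0.00144%, 0.00266% and 0.000978% in MPX 2, MPX 5 and MPX 7, and 0.00108%, 0.484% and 0.00257% in CPX 4, CPX 6 and CPX 8. CPX 6 was also the library with the lowest adipocyte sum, and the part of this in the B cell values was not tested.

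EA against MPX set electroacupuncture against a group without it, whose diet may also differ, and all 8 genes were higher in EA. Their EA means were 37.6 times (Ighd) to 170.2 times (Cr2) their MPX means. Cd79a had a mean of 154.3 ± 73.0 CPM over EA, against 1.91 ± 1.44 CPM over MPX (SD, n = 3 each, as for the means that follow). Cr2 had a mean of 141.7 ± 92.1 CPM over EA, against 0.83 ± 0.23 CPM over MPX. Ighd, with the smallest ratio, had a mean of 208.1 ± 91.8 CPM over EA, against 5.53 ± 2.09 CPM over MPX. The ranges did not overlap for 8 of 8 members, against 849 of all listed genes (21.5%) that lay wholly higher in EA. The fitted log2 differences ran from 5.23 (SE 2.12) for Ighd to 7.40 (SE 2.36) for Cr2, with a median of 6.34, while the median of all listed genes was 0.012.

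No member passed the adjusted threshold of 0.05 in EA against MPX when all 9 libraries shared 1 estimate of the spread (edgeR quasi-likelihood, adjusted p = 0.775 for each), and 0 of 3958 genes did (0.0%). An unadjusted p under 0.05 was reached by 8 of 8 members and by 202 of all genes (5.1%), of which 83 were higher (2.1%) and 119 lower in EA (3.01%). The members' unadjusted edgeR values lay between 0.0127 and 0.0379. The call turned on CPX 6, which is in neither group but enters the shared spread: without it all 8 passed, with adjusted p between 0.00826 (Ighd) and 0.0388 (Ms4a1), among 22 genes called higher (0.556%). With EA and MPX alone all 8 also rose, at adjusted p between 0.0105 and 0.0236, among 62 genes called higher (1.57%), and the log2 difference of Cr2 was then 7.37 (SE 0.62). The differences themselves hardly moved, their median being 6.34 without CPX 6 and 6.32 in the groups alone. DESeq2 on all 9 libraries called 7 of the 8 higher among 21 genes called higher (0.531%) and 28 called lower (0.707%), with Ighd at an adjusted p of 0.118, and limma voom called 0 genes (0.0%), with the members at unadjusted p between 0.0721 and 0.224.

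**Figure D2:**
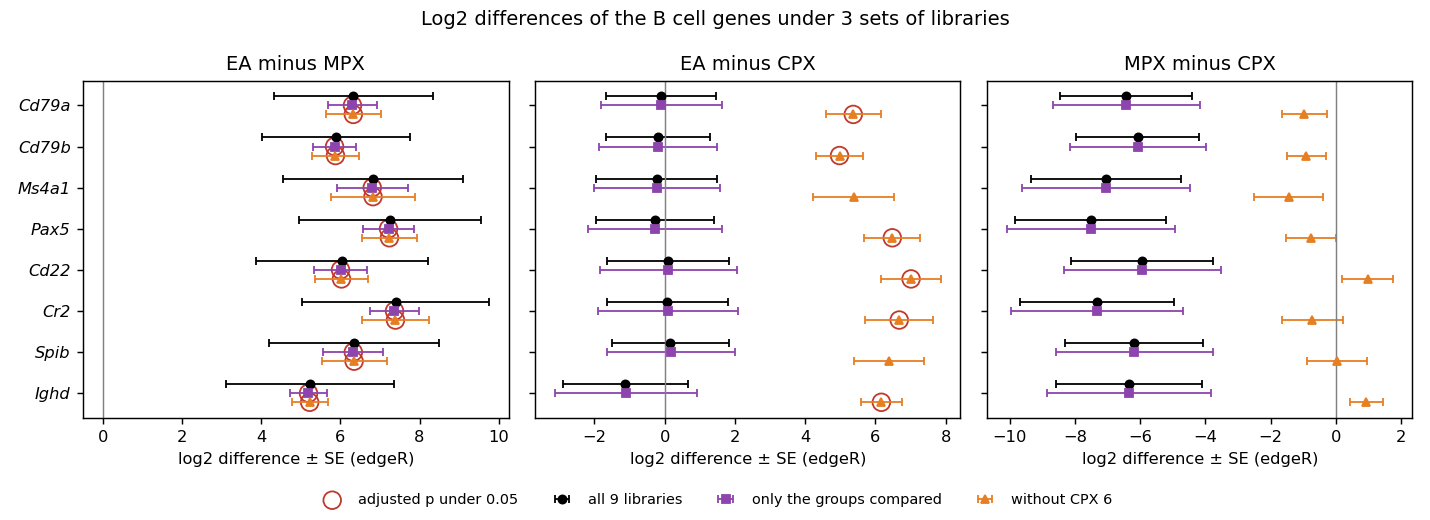
Fitted log2 difference of each of the 8 genes (points) with its SE (bars) in EA minus MPX, EA minus CPX and MPX minus CPX, fitted by edgeR with all 9 libraries, with only the groups compared and without CPX 6; open circles mark an adjusted p under 0.05. The EA minus MPX differences lie at about the same place in all 3 fits, with narrower bars where CPX 6 is left out, while without CPX 6 the EA minus CPX differences move to 4.98 and above and the MPX minus CPX differences to between -1.44 and 0.99.

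EA against CPX gave a direction that depended on the tool and on CPX 6. In the edgeR fit of all 9 libraries the 8 members' log2 differences ran from -1.12 (SE 1.78) for Ighd to 0.16 (SE 1.66) for Spib, 3 positive and 5 negative, with a median of -0.15 beside -0.093 for all genes. Cd79a had a mean of 154.3 ± 73.0 CPM over EA, against 165.4 ± 280.2 CPM over CPX, and Pax5 had a mean of 117.1 ± 65.4 CPM over EA, against 141.8 ± 243.4 CPM over CPX. The groups overlapped for every member, so 0 of 8 lay wholly higher (2.1% of all genes) and 0 of 8 wholly lower (5.08%). By edgeR 0 of 3958 genes were called (0.0%), with members at adjusted p of 0.997 to 0.999 and 117 genes at an unadjusted p under 0.05. DESeq2 called 5 genes (0.126%) with 0 members among them. Limma voom on the same 9 libraries called 0 genes but gave 8 of 8 members a positive difference, between 2.42 and 4.02 with a median of 3.08. Without CPX 6 every member was higher in EA, by log2 differences of 4.98 (Cd79b) to 7.02 (Cd22), and 6 of 8 passed the edgeR test among 11 genes called higher (0.278%). The 2 that did not were Ms4a1, at a log2 difference of 5.38 (edgeR adjusted p = 0.109), and Spib, at 6.39 (adjusted p = 0.0571). The lowest EA library was 13.96 times (Cd79b) to 65.7 times (Cd22) the level of CPX 8.

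MPX against CPX compared the groups that carry no treatment label. All 8 members were lower in MPX, with log2 differences between -7.52 (Pax5, SE 2.32) and -5.94 (Cd22, SE 2.17) and a median of -6.39, beside -0.11 for all genes. Cd79a had a mean of 1.91 ± 1.44 CPM over MPX, against 165.4 ± 280.2 CPM over CPX, and Ighd had a mean of 5.53 ± 2.09 CPM over MPX, against 451.5 ± 777.1 CPM over CPX. These gaps are those of CPX 6 alone, and 0 of 8 members lay wholly lower in MPX (7.71% of all genes did). By edgeR 0 genes were called (0.0%), members had adjusted p = 0.362, and 8 of 8 had an unadjusted p under 0.05, as did 522 genes (13.2%). DESeq2 called 201 genes (5.08%), all 8 members among them at adjusted p between 0.00252 and 0.0258, and limma voom called 0. Without CPX 6 the log2 differences were between -1.44 (Ms4a1) and 0.99 (Cd22), 3 of them positive, and edgeR called 0 members (adjusted p = 0.392 to 0.986). Without CPX 8 edgeR called 168 genes (4.24%), 99 of them lower in MPX (2.5%), but 0 members.

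MPX, CPX 4 and CPX 8 held few B cell transcripts, and the order within them varied by gene. MPX 7 had the lowest level of 6 members, 0.071 CPM of Ms4a1 among them. CPX 8 had the highest level of the low libraries for Cd79a, Cd79b, Ms4a1 and Cr2, at 4.96, 5.99, 6.70 and 2.44 CPM, while MPX 5 had the highest for Spib and Ighd, at 2.93 and 7.80 CPM. Cd22 was highest in MPX 2, at 3.90 CPM, and Pax5 in CPX 4, at 1.33 CPM. Antibody transcripts differed among themselves there, and Igkc, Jchain and Ighm did not follow the 8 genes. Igkc, the kappa light chain constant region, stood at 20.9, 8.80 and 11.7 CPM in MPX 2, MPX 5 and MPX 7 but at 963.6 CPM in CPX 4 and 2387 CPM in CPX 8, where Cd79a was at 2.37 and 4.96 CPM. Jchain, which joins secreted antibodies into multimers, was likewise at 1.24 to 5.04 CPM in MPX and at 196.5 and 342.6 CPM in CPX 4 and CPX 8. Ighm, the IgM heavy chain, stood at 458.7, 1198 and 1026 CPM in MPX 2, MPX 5 and MPX 7, far above Igkc there. In CPX 4 and CPX 8 it was at 1607 and 4667 CPM. The heavy chain genes Ighg1 and Ighg2c stayed low there like the 8 genes. Ighg1 was at 12.03 and 3.07 CPM in CPX 4 and CPX 8, against 8210 CPM in CPX 6. Ighg2c was at 0.284 and 7.40 CPM in CPX 4 and CPX 8, against 2116 CPM in CPX 6. Ighg2b was at 9.09 CPM in CPX 4 but at 155.5 CPM in CPX 8. Whether the Igkc, Jchain and Ighm transcripts come from other cells than the 8 genes was not tested.

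Ratios between members were compared in the libraries with at least 50 counts of both genes, which gave all 28 pairs in EA 5, EA 7, EA 8 and CPX 6, and 1 pair in MPX 2 and 3 in CPX 8. Ratios are of counts per kb of gene length and need no scaling between libraries. The EA libraries and CPX 6, which differ several-fold in level, held most members in similar proportion. Over these 4 libraries the highest ratio was 1.05 to 1.57 times the lowest for the 21 pairs without Ighd, with a median of 1.33.

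The receptor chains were near parity. Cd79b over Cd79a was 0.978, 0.876 and 1.01 in EA 5, EA 7 and EA 8, and 1.02 in CPX 6 (95% counting interval 0.986 to 1.06). The most constant pair was Cd79b and Ms4a1, whose ratio was 3.66 ± 0.11 in EA (SD, n = 3) and 3.56 in CPX 6. Ms4a1 over Cd79a was 0.261 ± 0.023 in EA and 0.287 in CPX 6, and in the low libraries it was 0.318 in CPX 8 (interval 0.227 to 0.447).

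Cd22 and Cr2, the opposing coreceptors, moved as a pair in their ratio to Cd79a. Cd22 over Cd79a was 0.275, 0.234 and 0.364 in EA 5, EA 7 and EA 8, and 0.269 in CPX 6 (0.260 to 0.279). Cr2 over Cd79a was 0.157, 0.128 and 0.191 in EA 5, EA 7 and EA 8, and 0.147 in CPX 6 (0.142 to 0.153). Both were highest in EA 8 and lowest in EA 7, and their ratio to each other was 1.83 ± 0.07 in EA and 1.83 in CPX 6. The counting intervals of EA 8 and EA 7 did not overlap for Cd22 or Cr2, a comparison of single libraries with no replicate.

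The transcription factors shifted in opposite directions between EA and CPX 6. Pax5 over Cd79a was 0.108, 0.123 and 0.132 in EA 5, EA 7 and EA 8, and 0.142 in CPX 6. Spib over Cd79a was 0.362, 0.330 and 0.386 in EA 5, EA 7 and EA 8, and 0.305 in CPX 6, the lowest of the 4. Pax5 over Spib was accordingly the most variable ratio without Ighd, at 0.338 ± 0.038 in EA and 0.467 in CPX 6. Per kb, Pax5 was the lowest of the 8 genes in EA and in CPX 6, at 6.44, 12.2 and 21.1 CPM per kb in EA 5, EA 7 and EA 8, and 47.8 CPM per kb in CPX 6.

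Ighd was the exception among these 4 libraries, through its value in CPX 6. Its ratio to Cd79a was 0.967, 1.19 and 0.964 in EA 5, EA 7 and EA 8, but 2.12 in CPX 6 (interval 2.06 to 2.18), or 2.04 times the EA mean of 1.04 ± 0.13. For the 7 pairs with Ighd the highest ratio over the 4 libraries was 2.04 to 2.96 times the lowest. In level, CPX 6 divided by the EA mean was 6.48 for Ighd and 2.65 (Spib) to 3.61 (Pax5) for the other 7 genes. Ighm over Cd79a was 5.73 ± 1.15 in EA and 9.70 in CPX 6, and Jchain over Cd79a 0.791 ± 0.461 in EA and 1.83 in CPX 6. The low libraries, which mostly miss the minimum of 50 counts, spread widely. Ighd over Cd79a was 1.73 in MPX 2 (interval 1.04 to 2.97), 1.72 in MPX 5 (1.200 to 2.503) and 6.13 in MPX 7 (3.06 to 13.96, with 9 counts of Cd79a), and 1.04 in CPX 4 (0.604 to 1.82) and 0.390 in CPX 8 (0.246 to 0.605). Ighm over Cd79a was 217 to 1244 in the 3 MPX libraries, 524 in CPX 4 and 727 in CPX 8. Jchain over Cd79a was 0.206 to 2.44 in MPX, 48.0 in CPX 4 and 39.96 in CPX 8. Relative to Cd79a, Ighm was thus far higher in MPX, CPX 4 and CPX 8 than in EA or CPX 6. Jchain was far higher in CPX 4 and CPX 8 only, and not in MPX. CPX 6 is a single library, so its ratio has no replicate within CPX.

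**Figure D3:**
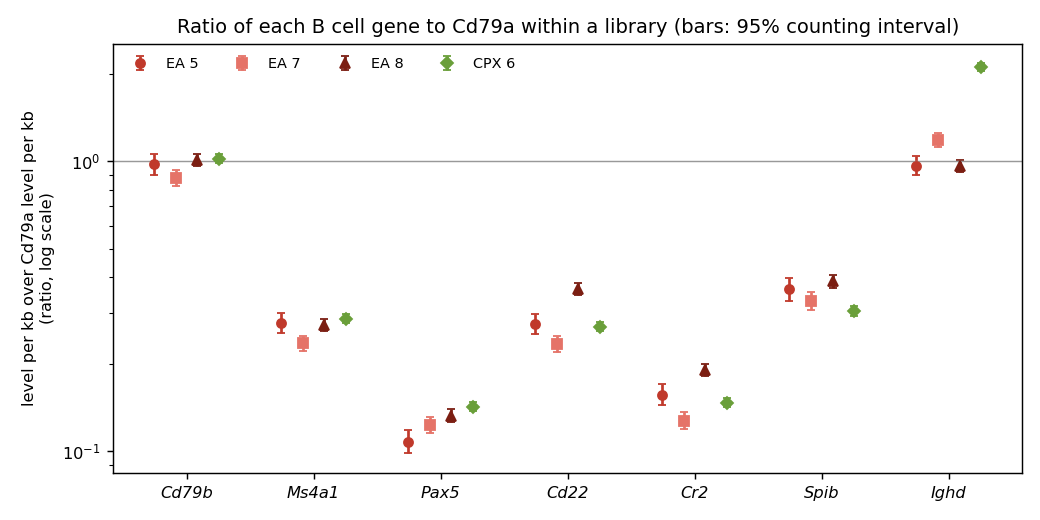
Ratio of each of the other 7 genes to Cd79a per kb of gene length, in EA 5, EA 7, EA 8 and CPX 6, with 95% counting intervals, on a log axis. Ighd is at 0.964 to 1.19 in EA and at 2.12 in CPX 6. For the other genes the highest ratio over the 4 libraries is at most 1.56 times the lowest (Cd22). Within EA, the ratios of Cd22 and Cr2 spread more than that of Ighd.

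Of 26 genes of a list of receptor signalling partners, 12 are listed, and 11 of them were higher in EA than in MPX, with a median log2 difference of 1.51 beside 0.012 for all genes. None passed with all 9 libraries. Ptpn6, the phosphatase recruited by Cd22, had a mean of 167.3 ± 99.1 CPM over EA, against 23.5 ± 15.0 CPM over MPX, and Fcgr2b, an inhibitory Fc receptor that macrophages also carry, a mean of 176.9 ± 113.1 CPM over EA, against 73.9 ± 30.9 CPM over MPX. Of 31 other identity genes, 10 are listed, with 9 higher in EA and a median of 2.19, and 6 rose in the groups alone, H2-Ob, Ciita, Cd37 and Irf8 among them. H2-Ob, a chain of the B cell MHC class II modulator H2-O, had a mean of 105.6 ± 50.5 CPM over EA, against 2.56 ± 0.70 CPM over MPX. The exception among the 10 was Ebf1, an early B lineage factor that fat precursor cells also use, at 180.0 ± 24.9 CPM over EA, against 206.7 ± 24.8 CPM over MPX. Antibody and plasma cell genes had 7 of 19 listed, all higher in EA, with a median of 6.87 and 4 called in the groups alone (Jchain, Igkc, Ighg2b and Ighg2c). Ighm, the IgM heavy chain that also forms the receptor, differed far less, with a mean of 1178 ± 743 CPM over EA, against 894 ± 387 CPM over MPX, overlapping ranges and a log2 difference of 0.40 (edgeR adjusted p = 0.847). In MPX it stood far above the light chain gene Igkc, and how its reads were assigned is not known. Its MPX level therefore cannot be read as receptor transcripts. Against CPX the medians in EA were 0.10 for the signalling partners, -0.19 for the identity genes and -1.19 for the antibody genes, beside -0.093 for all genes, and 0 were called.

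Markers of other cells are given by list median in EA against MPX. The 8 B cell genes are listed only through their counts in EA and CPX 6. The size of their median therefore cannot be set against that of other lists. Adipocyte and endothelial genes were mostly lower in EA. Macrophage and dendritic cell genes were higher in EA than in MPX for 10 of 10 listed, with a median log2 difference of 0.63, and their summed level was 2853 to 6731 CPM in EA, 1369 to 3995 CPM in MPX and 1561 to 4680 CPM in CPX. Lymphoid stroma genes, a list that holds Cr2, were higher for 5 of 8 listed with a median of 1.58, and their sum was 1814 to 3091 CPM in EA, 1543 to 2207 CPM in MPX and 1288 to 4329 CPM in CPX. Cxcl13, the chemokine that draws B cells into follicles, averaged 223.2 ± 233.4 CPM in EA, 10.97 ± 13.15 CPM in MPX and 167.4 ± 142.9 CPM in CPX. Mast cell genes were higher in EA for 3 of 3 (median 2.16), adipocyte genes for 2 of 14 (median -0.51) and endothelial genes for 0 of 6 (median -0.24). With EA and MPX alone, 1 macrophage gene (Timd4) and 2 stroma genes (Cr2 and Clu) rose, and 0 adipocyte, mast or endothelial genes were called. Of the smaller lists, innate-like B1 and marginal zone B cell genes were higher in EA for 0 of 4 listed (median -0.41), erythroid genes for 2 of 2 (median 1.14) and Bcl6, the 1 listed germinal centre gene, had a log2 difference of 0.56, with 0 called in the groups alone. Of those 4, Cd36 and Cd1d1 were lowest in CPX 6, where the 8 B cell genes were highest, at 683.5 and 65.7 CPM. Their correlations with the members were -0.75 and -0.85, and those of Cd9 and S1pr1 were 0.20 and 0.27. Which cells these 4 genes come from was not tested, so the list gives no reading of those B cell subsets. Lists of 22 T cell genes, 8 natural killer genes and 9 retina genes had no listed gene and were not analysed here. The part of these cells in the B cell differences was not tested.

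**Figure D4:**
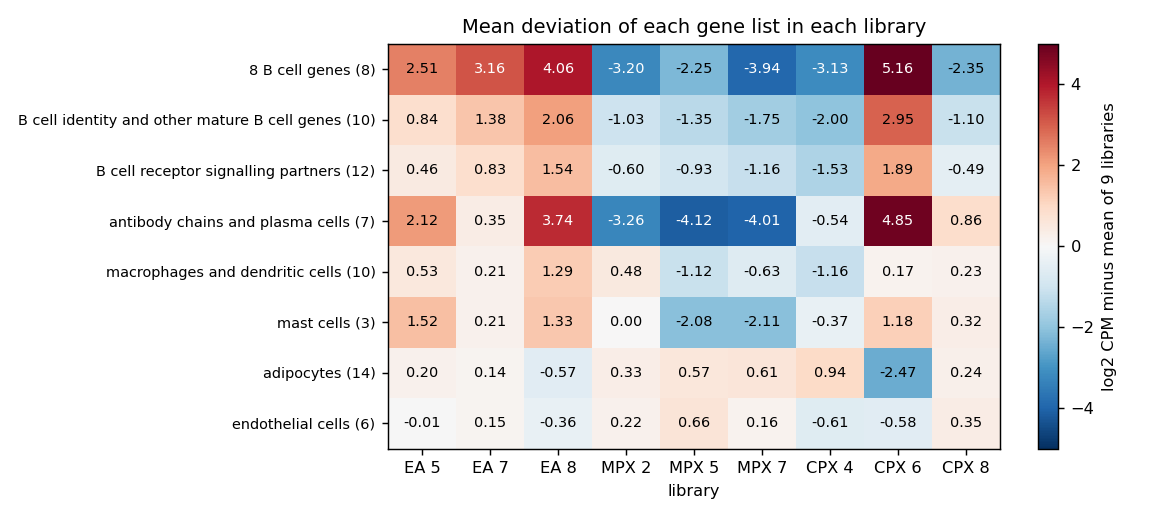
Mean deviation of each gene list in each library, as log2 CPM minus the gene's mean over the 9 libraries, averaged over the listed genes of the list (their number in parentheses); red is above and blue below that mean. The 8 B cell genes reach 5.16 in CPX 6, 2.51 to 4.06 in EA and at most -2.25 in the other 5 libraries, and the adipocyte list is lowest in CPX 6, at -2.47.

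The genes most like the 8 members were taken by Pearson's correlation over the 9 libraries between a gene's log2 CPM and the members' mean standardised log2 CPM, leaving out antibody segments. H2-Ob came first (r = 0.996), and the lymphocyte inhibitory receptor Btla had r = 0.985. H2-Ob was at 57.9, 100.3 and 158.6 CPM in EA 5, EA 7 and EA 8, at 1.77 to 3.12 CPM in MPX, and at 2.84, 353.4 and 4.10 CPM in CPX 4, CPX 6 and CPX 8. Like the members it stood high in CPX 6 and EA and low elsewhere, and its ratio to Cd79a was 0.315 ± 0.007 in EA and 0.334 in CPX 6. Lower in the 10 were Gimap3 (0.973), Itgal (0.965), Coro1a (0.964) and Rac2 (0.961), genes of lymphocytes or of leukocytes in general. The lysozyme gene Lyz1 (0.958) and Vcam1 (0.958), a gene of vessels and stroma, were also in the 10. Coro1a, an actin-binding protein of leukocytes, kept a level in the low libraries, with 232.4, 388.2 and 571.1 CPM in EA 5, EA 7 and EA 8, 42.6 to 82.3 CPM in MPX and 35.4 CPM in CPX 4. Lyz1 did not share the order within EA, at 130.7, 147.8 and 96.6 CPM in EA 5, EA 7 and EA 8, and it has a close paralog, Lyz2, with which reads could be split. Of 3943 genes compared, 102 had a correlation above 0.9 and 31 below -0.9, in libraries that form a high and a low cluster.

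**Figure D5:**
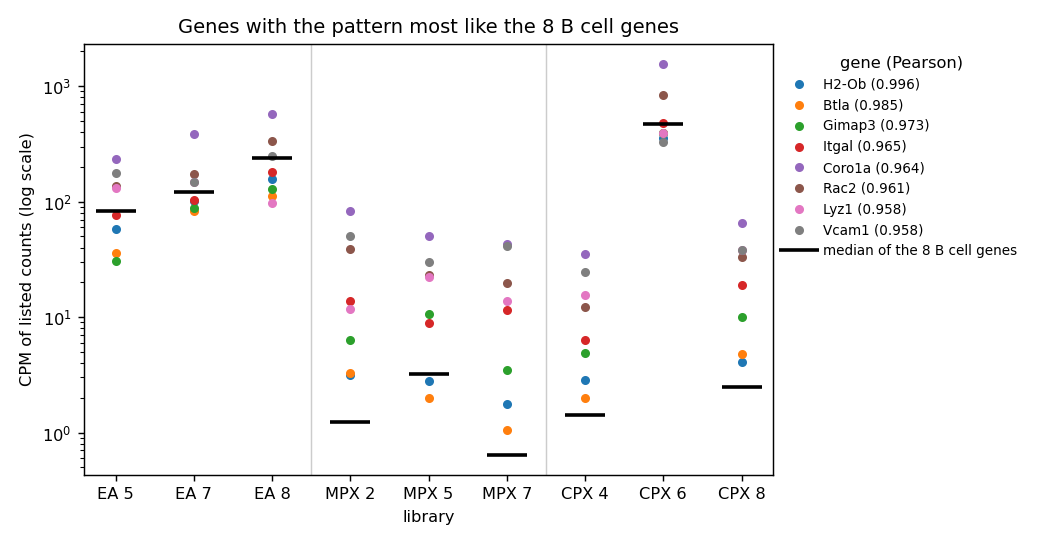
Level in each library of 8 of the 10 genes most like the members, as CPM on a log axis, with the correlation to the members in the legend and the members' median as a black line. All stand highest in CPX 6, and H2-Ob reaches at most 3.12 CPM in MPX.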

How the data were processed

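Adipose RNA of 9 mouse libraries was analysed, 3 each in EA, MPX and CPX. The labels' protocols name total RNA and an Illumina TruSeq kit. Alignment used HISAT2 2.0.5 with the build mm10, per the submitters' processing notes. How reads were counted, on which annotation and whether by strand, is not given in the sources used here, so reads of overlapping, antisense and near-identical genes could be split or mixed. The deposited table gives raw counts for each gene, and its file headers add names, positions and lengths. The table holds 3958 genes in falling order of total and breaks off within its last row, so column sums are not depths and CPM are relative to listed counts. Names of 11 genes were restored from gene IDs.

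Counts were fitted with edgeR 4.0.16 in R 4.3.3 (quasi-likelihood, robust, filterByExpr, which removed 0 genes, and TMM factors of 0.753 in CPX 4 and 0.98 to 1.10 elsewhere). All 9 libraries entered with 1 mean per group, with Benjamini-Hochberg adjustment over all genes of a contrast. The common dispersion was 0.161 (coefficient of variation 40.2%). Alternatives were DESeq2 1.42.0, limma 3.58.1 (voom), other scalings and filters, only the groups compared, leaving out each library, and the label number as a block. The method was tested on simulated counts. No replicate pair held near-identical counts (chi-square per degree of freedom at least 71.5). Intervals are exact 95% counting intervals. Ratios needed 50 counts of both genes. Named genes were all 8 members, up to 4 genes per list and contrast by smallest p, and the 10 genes most like the members. Some genes so taken are not reported here. Ebf1, Irf8, Cd37, Ighg2c, Ighm, Timd4 and the antibody genes set beside ratios were named after their values were seen. The members and lists were chosen with earlier results of these data known. Promoters are from RefSeq.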

Additional observations from a re-analysis of the deposited data

How the results depend on the processing

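In EA against MPX all 8 genes kept their direction in every alternative run. The number of genes called, 0 as reported, was 49 by DESeq2, 84 with only the groups compared, 145 with the replicate block and 0 to 23 over the libraries left out one at a time. The replicate block used the numbers 5 and 7 shared by EA and MPX. EA 8 and MPX 2 have no partner of the same number and do not inform its difference. That fit thus rests on EA 5, EA 7, MPX 5 and MPX 7, which leave little from which to estimate the spread. The block fit called 7 of 8 members (Ms4a1 edgeR adjusted p = 0.0606), among 85 genes called higher in EA (2.15%). The block rests on numbers only, since same-numbered libraries deviated together by correlations of 0.022 and 0.13 and others by up to 0.44. In EA against CPX the number called was 5 by DESeq2 and 0 to 12 with libraries left out, and in MPX against CPX it was 201 and 0 to 168. Directions in EA against CPX turned with the library left out: the log2 difference ran from -0.67 to 5.37 for Cd79a, -0.76 to 4.98 for Cd79b, -0.80 to 5.38 for Ms4a1, -0.85 to 6.48 for Pax5, -0.62 to 7.02 for Cd22, -0.59 to 6.68 for Cr2, -0.41 to 6.39 for Spib and -1.69 to 6.17 for Ighd. With limma voom it was 2.72 for Cd79a, 2.42 for Cd79b, 2.85 for Ms4a1, 3.30 for Pax5 and 2.83 for Ighd. In MPX against CPX the range was -6.48 to 0.99 for Cd22, -7.38 to 0.041 for Spib and -6.89 to 0.94 for Ighd, the upper end without CPX 6. Scaling by column totals alone put the median of all genes at 0.11 in EA against MPX and 0.10 in EA against CPX. Of the 10 most similar genes, 2 were kept with Spearman's correlation and 6 without CPX 6. Ratios were available 116 times at 50 counts and 146 times at 20 counts. The causes were not tested. The filters removed no gene and say nothing about stability. Depth limits the low libraries, where a member could rest on 1 count.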
